A study of Mus musculus with 12 samples.

Results

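mmu-miR-199a-3p, mmu-miR-199a-5p and mmu-miR-214 (mmu for mouse, left out below) are 3 of the 611 mouse miRNAs (microRNAs, short RNAs that repress messenger RNAs) on the array used here, and they were taken by name because they share a gene locus. All 3 were detected on each of the 12 arrays and were among the 157 miRNAs tested. The samples came from 3T3-L1, mouse fibroblasts kept as a line that can become fat cells in culture, in 4 groups of 3 arrays. Lithium plus MDI cells were lithium-treated preadipocytes given the MDI differentiation medium, which holds a phosphodiesterase inhibitor (3-isobutyl-1-methylxanthine), dexamethasone and insulin. MDI cells received that medium for 3 days, insulin alone for 2 days and plain medium for 2 days, with the end point at day 7. Lithium cells were preadipocytes given lithium chloride at 25 mM, and preadipocytes had neither treatment. The line was maintained in medium with fetal bovine serum. The submitters used MDI as their model of suppressed WNT signalling and lithium as that of activated WNT signalling. No schedule or end day is given in the sources used here for the lithium plus MDI, lithium or preadipocyte cells, so time in culture cannot be told apart from treatment. Separate cultures are not stated for the 3 samples of a group, and the p-values therefore describe the spread between those samples, part of which may be technical.

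miR-199a and miR-214 are known from mesenchyme: in mouse embryos they are processed from Dnm3os, a long noncoding RNA transcribed antisense to the dynamin gene Dnm3, and loss of that RNA impairs growth and the skeleton. A miRNA hairpin is cut into a 5p and a 3p arm, and either arm can be loaded into the silencing complex, where its seed (bases 2 to 8) pairs with targets. miR-199a-3p is known to repress the kinase MTOR and the receptor MET in human cells, miR-199a-5p represses Hif1a in heart muscle cells of rodents, and miR-214 represses Ezh2 in mouse muscle and Atf4 in mouse bone. Fat cell precursors are mesenchymal cells, and the comparisons ask whether these 3 miRNAs changed as the line was induced, treated with lithium, or both.

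The mature sequences are shown because a sequence shared by several loci gives a signal that cannot be assigned to 1 of them. They were taken from RefSeq on build GRCm38.p6, with the seed in capitals, and all 3 members matched an entry (the array's miR-214 is the 3p arm, listed as miR-214-3p).
miR-199a-5p: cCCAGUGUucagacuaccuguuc
miR-199a-3p: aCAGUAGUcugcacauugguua
miR-214-3p: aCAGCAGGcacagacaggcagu
miR-761: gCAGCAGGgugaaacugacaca
The 3 members have 3 different seeds. The sequence of miR-199a-3p is given by 3 hairpin genes, Mir199a-2, Mir199a-1 and Mir199b, with 1 distinct sequence among them, so its signal cannot be assigned to a locus. miR-199a-5p has 1 sequence from 2 genes, Mir199a-2 and Mir199a-1. The Mir199b hairpin holds a near-identical stretch, and whether the miR-199a-5p probes also bind its product was not tested. miR-214-3p comes from Mir214, and its seed is shared with miR-761, which was detected on 0 of the 12 arrays.

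The hairpins are shown to place the arms, which are in capitals.
Mir199a-2: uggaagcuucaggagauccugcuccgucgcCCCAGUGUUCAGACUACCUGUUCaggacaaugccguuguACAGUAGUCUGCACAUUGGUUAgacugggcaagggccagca
Mir199a-1: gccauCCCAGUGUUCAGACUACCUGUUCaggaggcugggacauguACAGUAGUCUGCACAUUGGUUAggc
Mir214: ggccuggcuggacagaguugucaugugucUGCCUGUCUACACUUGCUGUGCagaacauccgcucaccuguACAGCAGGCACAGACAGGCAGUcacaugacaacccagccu
Mir199a-2 lies at chr1:162217814-162217923 and Mir214 at chr1:162223368-162223477, both on the plus strand, with 5444 bases between them. Both are inside Dnm3os (chr1:162217623-162225550, plus strand), which lies inside Dnm3 (chr1:161982450-162478321, minus strand). Mir199a-1 is at chr9:21496495-21496564 on the minus strand, inside Dnm2, and Mir199b is at chr2:32318460-32318569 on the plus strand, inside Dnm1. Whether these stretches are exons or introns is not given by the table used here.

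The arrays detected 126 to 178 miRNAs each. Preadipocyte arrays 1 to 3 and MDI array 1 were on slide 1, and the other 8 arrays were on slide 2. Over the 157 tested miRNAs, 6 of the 12 arrays had a higher mean correlation to some other group than to their own. By mean r with its own group, the 3 lowest arrays were preadipocyte array 3 (0.939), lithium array 1 (0.942) and lithium plus MDI array 3 (0.924). Lithium plus MDI array 2 was close, at 0.944. MDI array 1 was the lowest of its group (0.954) but was kept when results were also given without these 3. The 3 were chosen from these same data, and dropping arrays unlike their own group can enlarge group differences. Of 28 markers of epithelium, muscle, blood, neural tissue, liver and endothelium on the array, 26 were detected nowhere, miR-205 was detected on 3 arrays and miR-128 on 7.

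The 4 group means of mmu-miR-199a-3p spanned little more than the SD among replicates. Values are normalized log2 signals, that is, the log2 of the background-subtracted intensity of the brightest probe after each array was divided by its own 75th percentile, so 1 unit is a factor of 2. The signal was 3.18, 3.00 and 2.93 in lithium plus MDI cells, 2.43, 3.43 and 3.05 in MDI cells, 3.11, 2.49 and 2.64 in lithium cells and 2.77, 3.20 and 3.56 in preadipocytes. Every pair of groups overlapped, the lowest array being MDI array 1 and the highest preadipocyte array 3. Means were 3.04 ± 0.13, 2.97 ± 0.50, 2.75 ± 0.32 and 3.18 ± 0.39 in that order (SD, n = 3 each). The 4 means spanned 0.43, against a pooled SD within groups of 0.36, and neighbours in the order of means were at most 0.22 apart.

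mmu-miR-199a-5p, the other arm, differed between groups by less than its own spread. The signal was 0.88, 0.81 and 1.19 in lithium plus MDI cells, 0.30, 1.53 and 1.18 in MDI cells, 1.21, 1.35 and 1.33 in lithium cells and 1.24, 0.79 and 1.86 in preadipocytes. The lithium arrays lay close together and just above all 3 lithium plus MDI arrays, while the MDI arrays and the preadipocyte arrays each spread over more than 1 unit. Means were 0.96 ± 0.20, 1.00 ± 0.64, 1.30 ± 0.072 and 1.30 ± 0.54 (SD, n = 3 each), a span of 0.34 against a pooled SD of 0.43. The largest gap between neighbouring means was 0.30.

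mmu-miR-214 was the most variable of the 3 among replicates. Its signal was 1.09, 0.66 and 0.99 in lithium plus MDI cells, 0.059, 1.78 and 1.29 in MDI cells, 1.80, 0.90 and 1.05 in lithium cells and 1.26, 0.73 and 1.55 in preadipocytes. MDI array 1 was the lowest of the 12 and lithium array 1 the highest, and every pair of groups overlapped. Means were 0.91 ± 0.22, 1.04 ± 0.89, 1.25 ± 0.48 and 1.18 ± 0.41 (SD, n = 3 each), a span of 0.34 against a pooled SD of 0.56. Neighbouring means were at most 0.14 apart.

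**Figure D1:**
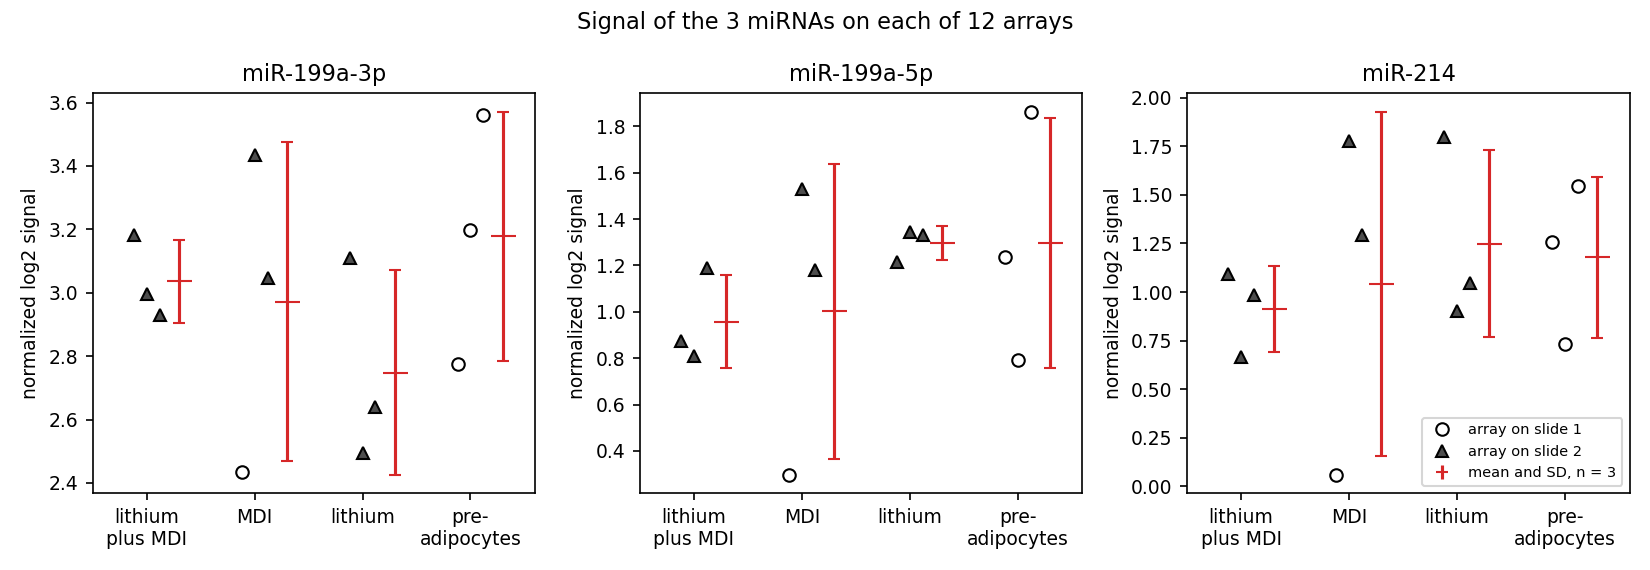
Normalized log2 signal (vertical axes, not starting at 0) of miR-199a-3p, miR-199a-5p and miR-214 on each array, by group, with open circles for slide 1, filled triangles for slide 2 and red bars for the mean and SD of 3 arrays. MDI array 1, the open circle among the MDI arrays, is the lowest array for each of the 3 miRNAs, and the preadipocyte arrays are all on slide 1.

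The 3 members shared part of their variation from array to array. Over the 12 arrays miR-214 correlated at Pearson r = 0.81 with miR-199a-5p (Spearman 0.64) and at 0.65 with miR-199a-3p (0.57), and the arms correlated at 0.48 (0.23). After subtraction of each group's mean the r values were 0.80, 0.82 and 0.63, so the shared movement was also present among replicates of a group. All values of an array share 1 RNA sample, labelling and scaling, and the correlations are a description. Among all other tested miRNAs, miR-199a-5p ranked 1 by likeness to miR-214, and miR-214 ranked 2 by likeness to miR-199a-5p. miR-199a-3p and miR-214 each ranked 3 by likeness to the other, while miR-199a-5p ranked 11 by likeness to miR-199a-3p and miR-199a-3p ranked 16 by likeness to miR-199a-5p.

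**Figure D2:**
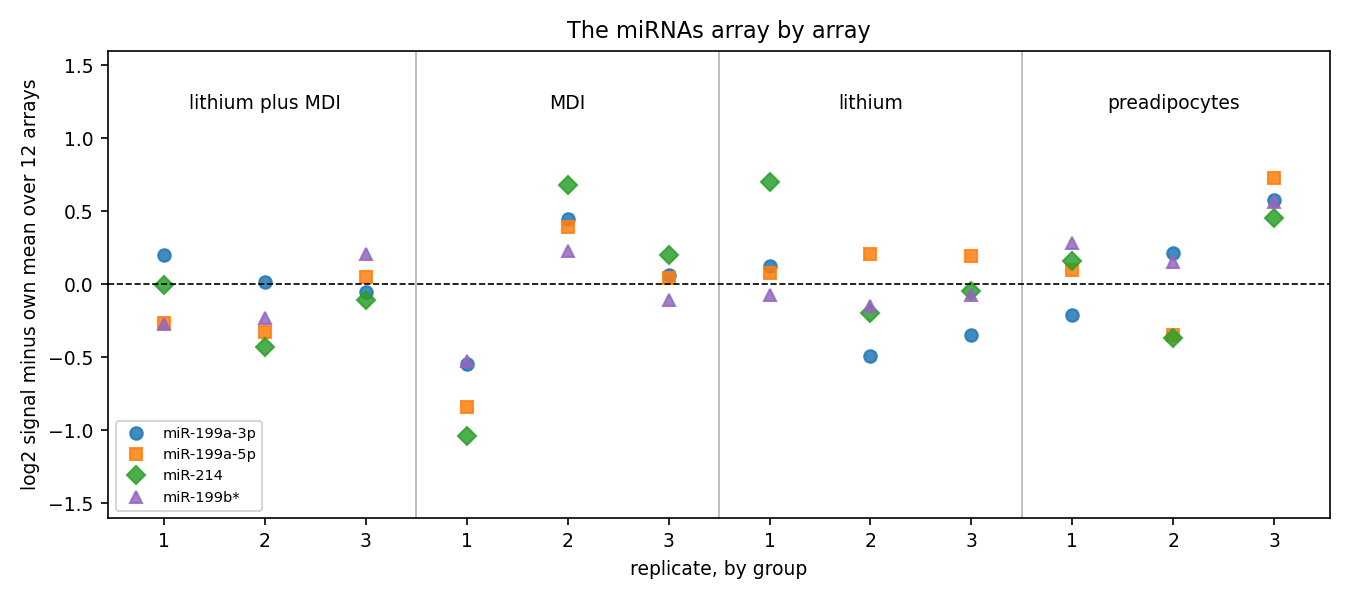
Log2 signal of each miRNA minus its own mean over the 12 arrays (vertical axis), array by array within the 4 groups. The 3 members and miR-199b* all lie below their means on MDI array 1 and above them on MDI array 2 and preadipocyte array 3.

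By the same measure the tested miRNAs most like miR-199a-3p, leaving out the members, were let-7a (r = 0.78), let-7f (0.69) and miR-351 (0.64). Those most like miR-199a-5p were miR-503 (0.82), miR-26a (0.80) and miR-322 (0.79). Those most like miR-214 were miR-351 (0.68), miR-26a (0.61) and miR-199b* (0.61). The let-7 miRNAs are abundant in differentiated cells, miR-26a lies in an intron of a phosphatase gene, and miR-322, miR-503 and miR-351 come from one cluster on the X chromosome.

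After MDI, the comparison of induced cells with preadipocytes, none of the 3 members passed the threshold, which was met by 3.18% of all tested miRNAs. The log2 difference was -0.21 for miR-199a-3p (SE 0.31, 95% confidence interval -0.87 to 0.46, limma adjusted p = 0.694), -0.30 for miR-199a-5p (SE 0.34, interval -1.03 to 0.44, adjusted p = 0.609) and -0.14 for miR-214 (SE 0.41, interval -1.02 to 0.75, adjusted p = 0.854). No member's groups separated, as those of 26.8% of tested miRNAs did. All 3 differences were negative, against a median of 0.10 over all tested miRNAs. These signals come from bulk RNA, in which fewer cells of a type and less of a miRNA per cell cannot be told apart. Within slide 1, the difference of MDI array 1 from the preadipocyte mean was -0.74 for miR-199a-3p, -1.001 for miR-199a-5p and -1.12 for miR-214. The fit with the slide as a block gives these same 3 values by design (limma adjusted p 0.191 to 0.336). MDI array 1 is the only MDI array on the slide of the preadipocytes, so that fit is no second reading of the difference. Without MDI array 1 the differences were 0.063, 0.058 and 0.36, and without the 3 arrays that stood apart they were -0.014, -0.012 and 0.049.

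The size of this difference depended on the scaling. The 75th percentile of the signal was 265 to 477 on the lithium plus MDI arrays, 264 to 382 on the MDI arrays and 316 to 414 on the lithium arrays, against 503 to 780 on the preadipocyte arrays. With a percentile that included all mouse probes, most of which were near background, miR-199a-3p (-1.02, adjusted p = 0.0269) and miR-199a-5p (-1.11, adjusted p = 0.0313) passed as lower after MDI and miR-214 did not (-0.95, adjusted p = 0.0873). In that fit 48 of the 157 tested miRNAs passed. Over all tested miRNAs it had a median of -0.64, and each member lay further below 0 than that median.

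Lithium treatment of preadipocytes gave no member past the threshold, which 6.37% of all tested miRNAs met. miR-199a-3p lay at -0.43 (SE 0.31, interval -1.10 to 0.24, limma adjusted p = 0.388), the largest pairwise difference of any member, equal to 1.35-fold. miR-199a-5p lay at 0.00034 (SE 0.34, interval -0.74 to 0.74, adjusted p = 0.999) and miR-214 at 0.071 (SE 0.41, interval -0.81 to 0.95, adjusted p = 0.900), and the median over all tested miRNAs was -0.065. miR-199a-3p passed as lower with the percentile over all mouse probes (-1.33, adjusted p = 0.00621, median of all -0.90) and without scaling (-1.12, adjusted p = 0.0435, median of all -0.69), and it lay at 0.050 with quantile normalization. With that percentile 78 of the 157 tested miRNAs passed in this comparison, and without scaling 74 did. The preadipocyte and lithium arrays shared no slide. A fit with slide blocks gave -1.24, -1.06 and -1.40 (adjusted p 0.310 to 0.363), and these rest on MDI array 1, the link between the slides. With no block and without the 3 arrays that stood apart, the lithium differences of the 3 members were -0.42, 0.32 and -0.018.

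In lithium plus MDI against lithium cells neither arm passed the test. The arms had differences of opposite sign at the 75th percentile scaling, and both were negative with quantile normalization (-0.36 for miR-199a-3p and -0.63 for miR-199a-5p). The difference from lithium alone was 0.29 for miR-199a-3p (SE 0.31, interval -0.38 to 0.96, limma adjusted p = 0.509), -0.34 for miR-199a-5p (SE 0.34, interval -1.08 to 0.40, adjusted p = 0.484) and -0.34 for miR-214 (SE 0.41, interval -1.22 to 0.55, adjusted p = 0.576). No member passed, as with 0% of all tested miRNAs, of which 48 (30.6%) had an unadjusted p under 0.05. All tested miRNAs together had a median of 0.39, and miR-199a-5p and miR-214 ranked 134 and 133 of 157 from the highest difference. miR-199a-5p was the single member whose groups did not overlap, a state that 33.8% of tested miRNAs shared in this comparison. All 6 arrays were on slide 2. Without the 3 arrays that stood apart, the values were 0.52, -0.50 and -0.10.

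In lithium plus MDI against MDI cells no member passed the test. The differences were 0.064 for miR-199a-3p (SE 0.31, interval -0.60 to 0.73), -0.044 for miR-199a-5p (SE 0.34, interval -0.78 to 0.69) and -0.13 for miR-214 (SE 0.41, interval -1.01 to 0.75), with limma adjusted p of 0.981 to 0.996. No member's groups separated (12.1% of tested miRNAs did), and no tested miRNA passed (0%, with 6, or 3.82%, at an unadjusted p under 0.05). Within slide 2, which leaves out MDI array 1, the values were -0.20, -0.40 and -0.62 (adjusted p 0.483 to 0.859), so the direction for miR-199a-3p depends on that array.

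The interaction, the MDI difference with lithium minus that without it, was 0.49 for miR-199a-3p (SE 0.44, limma adjusted p = 0.547), -0.044 for miR-199a-5p (SE 0.48, adjusted p = 0.958) and -0.20 for miR-214 (SE 0.58, adjusted p = 0.857), with 0% of tested miRNAs past the threshold and 35 (22.3%) at an unadjusted p under 0.05. For miR-199a-3p the interaction came to 1.15 when the percentile included all mouse probes (limma adjusted p = 0.086), 1.36 without scaling (adjusted p = 0.088), 1.03 with the slide as a block (adjusted p = 0.315) and -0.15 with quantile normalization. The medians of all tested miRNAs in those fits were 0.89, 1.04, 0.32 and 0.062, with 20, 61, 4 and 3 of 157 past the threshold. Averaged over both lithium states, which uses all 12 arrays, the MDI difference was 0.041 for miR-199a-3p (SE 0.22, interval -0.43 to 0.51, adjusted p = 0.910), -0.32 for miR-199a-5p (SE 0.24, interval -0.84 to 0.20, adjusted p = 0.361) and -0.24 for miR-214 (SE 0.29, interval -0.86 to 0.39, adjusted p = 0.535), where 3.18% of tested miRNAs passed and the median of all was 0.25. The average lithium difference was -0.18, -0.022 and -0.029 for the 3 members (SE 0.22, 0.24 and 0.29), with adjusted p of 0.864 to 0.989 and 0% of tested miRNAs past the threshold (20, or 12.7%, at an unadjusted p under 0.05). With the percentile over all mouse probes the average lithium differences were -0.75, -0.59 and -0.60 (adjusted p 0.066 to 0.129), and with the slide as a block they were -0.72, -0.73 and -1.01 (adjusted p 0.375 to 0.499). The average MDI differences in those fits were -0.44, -0.80 and -0.72 (adjusted p 0.057 to 0.197) and -0.23, -0.67 and -0.73 (adjusted p 0.147 to 0.575). Medians of all tested miRNAs in those fits were -0.49 and 0.13 for the average lithium difference, and -0.23 and 0.21 for the average MDI difference. With the slide as a block, the interaction and both averages also rest on MDI array 1, the link between the slides. At the 75th percentile scaling 0 of 21 member comparisons passed with limma, and the smallest adjusted p was 0.361. The smallest unadjusted p was 0.188.

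**Figure D3:**
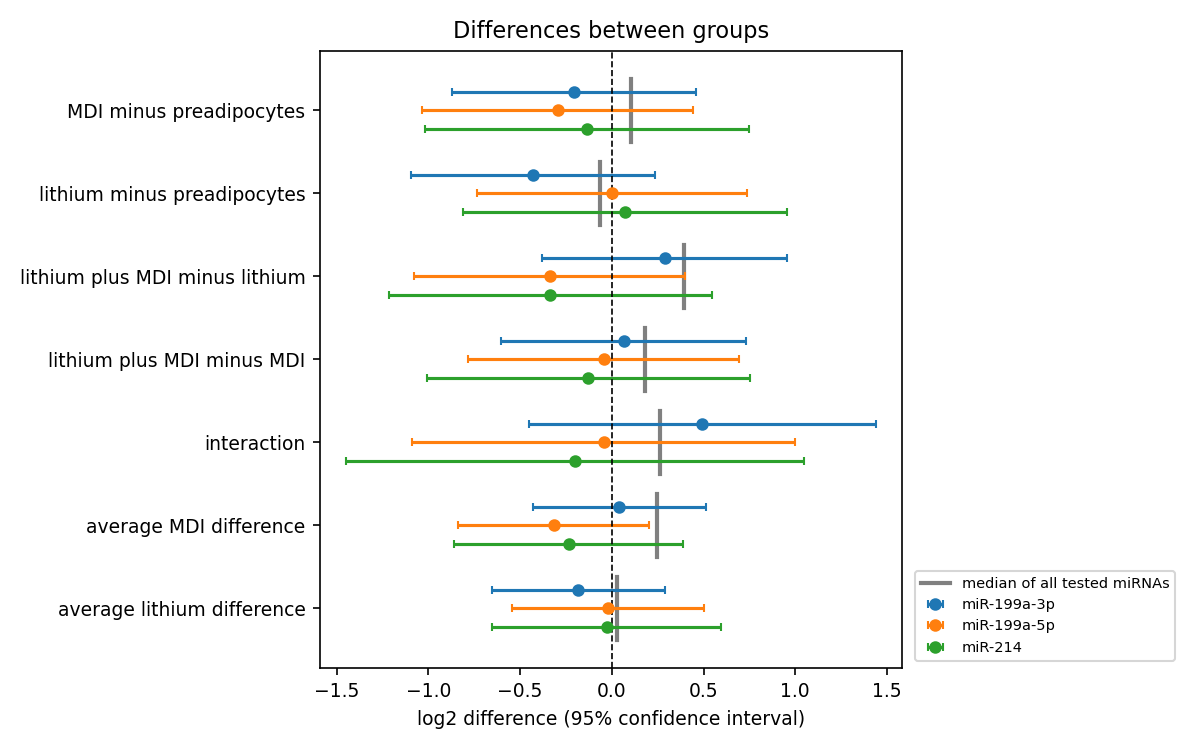
Log2 difference with 95% confidence interval (horizontal axis) of the 3 members in 7 comparisons, with grey bars for the median of all 157 tested miRNAs. Every interval covers 0, and the lower and upper ends of the pairwise intervals reach -1.22 and 0.96.

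The ratio of the miR-199a arms within an array is not changed by dividing each array by a factor of its own. Its absolute size depends on the brightness of 2 different probes and is not a ratio of molecules. Mir199b also gives the 3p sequence but not that of miR-199a-5p, so the ratio is not of the miR-199a hairpins alone. The log2 ratio of 3p over 5p was 2.31, 2.19 and 1.74 in lithium plus MDI cells, 2.14, 1.90 and 1.87 in MDI cells, 1.90, 1.15 and 1.31 in lithium cells and 1.54, 2.41 and 1.70 in preadipocytes. Lithium arrays 2 and 3 had the lowest ratios of the 12 and preadipocyte array 2 the highest. Means were 2.08 ± 0.30, 1.97 ± 0.15, 1.45 ± 0.39 and 1.88 ± 0.46 (SD, n = 3 each).

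No comparison of the arm ratio passed. Tested were 3 ratios in 4 pairwise comparisons by two-sided exact permutation, where 3 against 3 arrays cannot give a p below 0.1. The arm ratio was 0.63 higher on the log2 scale in lithium plus MDI than in lithium cells (1.54-fold, SE 0.29, exact p = 0.2, 0.9 after adjustment over the 12 tests). It lay at -0.43 in lithium cells against preadipocytes (SE 0.35, exact p = 0.3), at 0.089 after MDI (SE 0.28, exact p = 0.8) and at 0.11 in lithium plus MDI against MDI cells (SE 0.19, exact p = 0.6), each with an adjusted p of 0.9 or 0.982. An exact permutation within lithium states, which can reach 0.005, gave an average MDI difference of 0.36 (SE 0.20, exact p = 0.125, 0.645 adjusted over 6 tests), and the average lithium difference was -0.16 (SE 0.20, exact p = 0.48). With quantile normalization the lithium difference of the arm ratio was -0.059, and that between lithium plus MDI and lithium cells was 0.27. The authors' deposited table holds 1 identical top value for miR-199a-3p on 9 of the 12 arrays, so no arm ratio is read from it. Without preadipocyte array 2 the average MDI difference was 0.49 (exact permutation p = 0.02, unadjusted). That array had the highest ratio of the 12 (2.41), so leaving it out had to raise this difference. Without the 3 arrays that stood apart, the difference between lithium plus MDI and lithium cells was 1.02 on 2 arrays each. Of those left out, lithium array 1 had the highest ratio of the lithium arrays (1.90). Lithium plus MDI array 3 had the lowest ratio of its group (1.74), so leaving out both had to widen the difference.

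**Figure D4:**
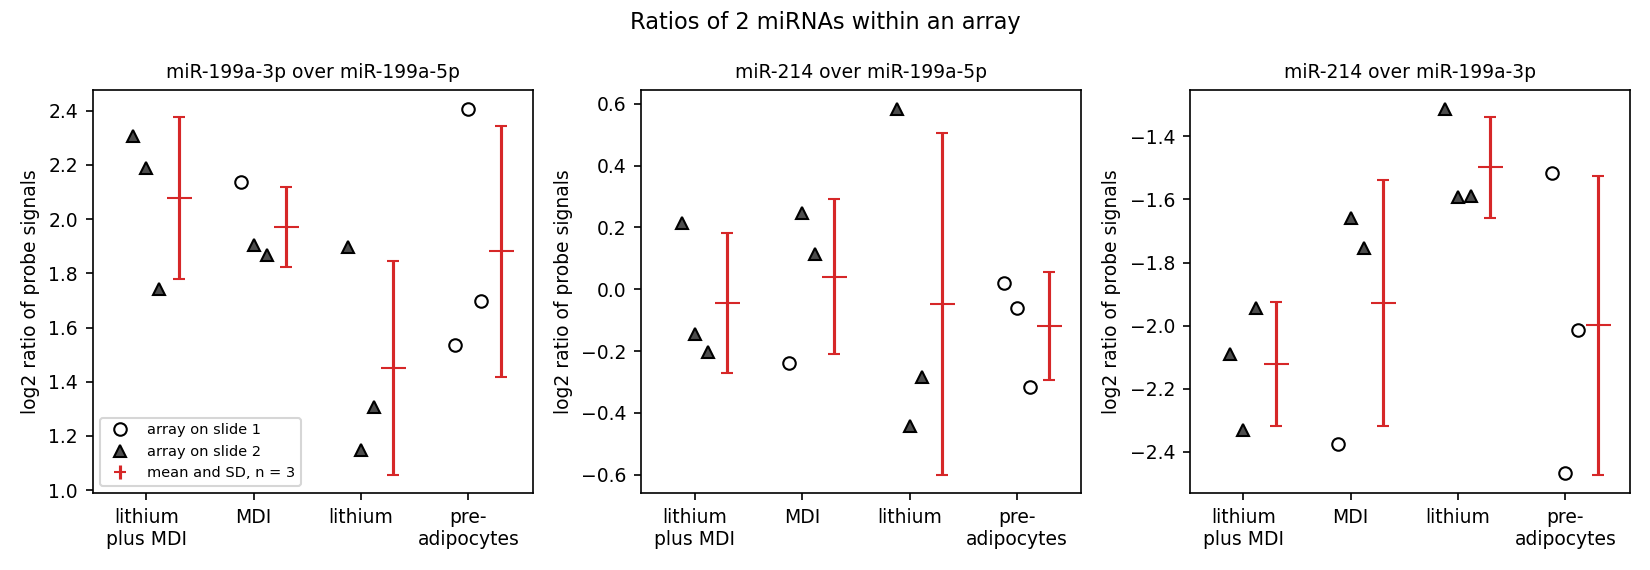
Log2 ratio of the probe signals of 2 miRNAs within an array (vertical axes), by group, with symbols for the slide and red bars for mean and SD of 3 arrays. The arm ratio of miR-199a is lowest on lithium arrays 2 and 3, and the ratio of miR-214 to miR-199a-3p separates the lithium plus MDI arrays from the lithium arrays.

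Over the 12 arrays the log2 ratio of miR-214 to miR-199a-5p had an SD of 0.29, and that of miR-214 to miR-199a-3p an SD of 0.37. The log2 ratio of miR-214 to miR-199a-5p had group means of -0.044 ± 0.23 in lithium plus MDI, 0.041 ± 0.25 in MDI, -0.048 ± 0.55 in lithium cells and -0.12 ± 0.18 in preadipocytes (SD, n = 3 each), and its pairwise differences were between -0.085 and 0.16. The ratio of miR-214 to miR-199a-3p was -2.09, -2.33 and -1.94 in lithium plus MDI cells, against -1.31, -1.59 and -1.59 in lithium cells. These groups did not overlap, and the difference of -0.62 (SE 0.15) had the smallest p that 3 against 3 allows (exact p = 0.1, adjusted p = 0.9). Its average MDI difference was -0.28 (SE 0.19, exact permutation p = 0.215, adjusted p = 0.645).

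Each member was read by 2 probes of 10 spots each, both detected on all 12 arrays. The brighter probe exceeded the dimmer one by 0.64 to 0.87 for miR-199a-3p, 2.47 to 2.90 for miR-199a-5p and 1.17 to 1.70 for miR-214, on the log2 scale. The SD of this gap over the 12 arrays was 0.060, 0.14 and 0.18, while that of the arm ratio was 0.39, so probes of the same miRNA followed each other more closely than the arms did. After lithium, the dimmer probes gave -0.36, 0.29 and 0.39 for the 3 members, against -0.43, 0.00034 and 0.071 from the brighter ones. After MDI the dimmer probes gave -0.092, -0.078 and 0.041.

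The relatives of the members on the array were miR-199b*, from the hairpin of Mir199b, and miR-214*, the 5p arm of Mir214. miR-199b* was detected on all 12 arrays and read 0.66, 0.71 and 1.14 in lithium plus MDI cells, 0.41, 1.16 and 0.83 in MDI cells, 0.86, 0.79 and 0.86 in lithium cells and 1.22, 1.09 and 1.497 in preadipocytes. The lithium arrays lay below all preadipocyte arrays, at -0.43 (SE 0.26, limma adjusted p = 0.329), a separation that 29.9% of tested miRNAs showed in that comparison, and the MDI difference was -0.47 (SE 0.26, adjusted p = 0.356). After subtraction of group means it correlated with miR-199a-5p at r = 0.91. Whether its probes also bind miR-199a-5p was not tested. miR-214* was near background, with its brightest probe detected on 10 of the 12 arrays and its other 3 probes on 0, and its values of -4.97 to -3.48 reached the floor set for dim signals. Its largest pairwise difference was 0.61 after MDI (SE 0.36, adjusted p = 0.373).

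A list of 23 other miRNAs known from fibroblasts and mesenchymal cells gave 1 call after MDI among 23 tested, in the lower direction that 1.91% of all tested miRNAs took, and 0 in the other 3 pairwise comparisons and in the interaction. The list was chosen with earlier results of these data known. Setting its calls beside the shares of all tested miRNAs is therefore a description and not a test. miR-10b, encoded among the Hoxd genes, read -1.12, -1.47 and -2.05 in MDI cells, against 0.41, 0.46 and 0.099 in preadipocytes. It fell by 1.87 on the log2 scale (SE 0.38, limma adjusted p = 0.0263), and the call was lost with the slide as a block (-1.45, limma adjusted p = 0.190), with normexp background correction (-1.35, adjusted p = 0.674), and without preadipocyte array 1 (-1.82) or 2 (-1.80) or MDI array 2 (-1.91) or 3 (-1.62). In each of these 6 fits 0 of the 157 tested miRNAs passed. In the average MDI difference miR-10b was lower (-1.07, SE 0.27, limma adjusted p = 0.0452) and miR-27a, which targets the fat cell regulator PPARG, was higher (0.78, SE 0.17, adjusted p = 0.0291), where 1.27% of all tested miRNAs were called lower and 1.91% higher. The miR-10b call in that average was lost under 8 of the processing alternatives, where the difference was -0.79 to -1.54 and the adjusted p 0.0503 to 0.647. These were the slide block, the replicate block, no scaling, normexp, the mean of all probes, the authors' deposited table and both other detection filters. It was also lost on leaving out any of 10 of the 12 arrays (all but lithium array 1 and lithium plus MDI array 3). The miR-27a call was lost with the percentile over all mouse probes (0.29, adjusted p = 0.462), without scaling (0.31, adjusted p = 0.299), with normexp (0.81, adjusted p = 0.647), in the authors' deposited table (0.69, adjusted p = 0.0561) and on leaving out any of 8 arrays (preadipocyte 1 to 3, MDI 3, lithium 2 or 3, lithium plus MDI 1 or 2). On leaving out each of those 8 arrays, 0 of the 157 tested miRNAs passed in the average MDI difference. The same held without scaling, with normexp and in the authors' deposited table. The medians of the list were 0.087 after MDI, -0.28 after lithium, 0.68 in lithium plus MDI against lithium and 0.31 in lithium plus MDI against MDI, while those of all tested miRNAs were 0.10, -0.065, 0.39 and 0.18.

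**Figure D5:**
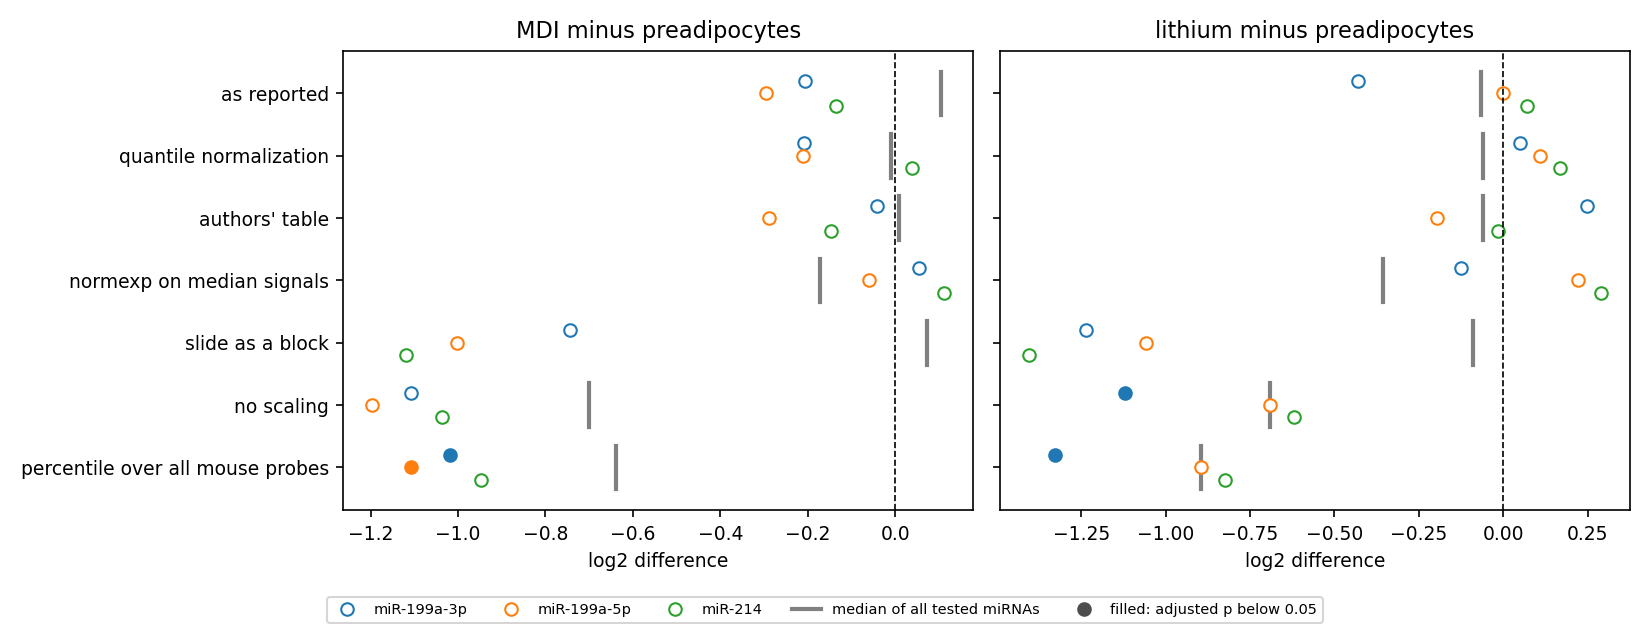
Log2 differences (horizontal axes) of the 3 members after MDI (left) and after lithium (right) with 7 ways of processing, filled where the limma adjusted p was below 0.05, with grey bars for the median of all tested miRNAs. With the percentile over all mouse probes the filled points are miR-199a-3p and miR-199a-5p after MDI and miR-199a-3p after lithium. Without scaling only miR-199a-3p after lithium is filled. In both settings the median of all miRNAs also lies well below 0.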

How the data were processed

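Total RNA from 12 samples of 3T3-L1 cells was hybridised to 1-colour Agilent miRNA arrays, 4 groups of 3, grouped by their titles. The spot intensity values are those the authors deposited as scanner output of Agilent Feature Extraction 10.5.1.1 per the file headers, while the submitters' processing notes name 9.5.3. The processed signal used here is background-subtracted per the file headers. The value table the authors deposited holds log2 values whose normalization is not given in the sources used here, and it served as an alternative.

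Outlier-flagged spots were dropped, the other spots of a probe averaged, and each array divided by the 75th percentile of its mouse probes detected on all arrays. Signals were floored at log2 -4.97 and the brightest probe stood for a miRNA. Detection of a probe meant a share over 0.5 of kept spots well above background. miRNAs detected on all 3 arrays of a group were tested with limma 3.58.1 in R 4.3.3, with 4 group means and no block, and Benjamini-Hochberg adjustment at 0.05. Ratios were tested by exact permutation. The fit was tested on simulated data. The number of arrays limits the precision.

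The named miRNAs were the 3 members, entries starting miR-199 or miR-214, the 3 miRNAs most alike each member by Pearson r, and members of a mesenchymal list that passed. The members and lists were chosen with earlier results of these data known. The labels state no pairing by replicate number, so the main fit had no replicate block. Alternatives covered scaling, background, probe summary, detection filter, slide, replicate block and left-out arrays.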

Additional observations from a re-analysis of the deposited data

How the results depend on the processing

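None of the 3 members passed the threshold in any comparison when single arrays were left out, and those that passed under other processing were lower after MDI or lithium: with the percentile over all mouse probes miR-199a-3p (-1.02) and miR-199a-5p (-1.11) after MDI and miR-199a-3p (-1.33) after lithium, and without scaling miR-199a-3p after lithium (-1.12). Of the 157 tested miRNAs, 48 passed after MDI and 78 after lithium with that percentile, and 74 passed after lithium without scaling. Outside left-out arrays, 223 member results kept direction and side of the threshold. The other 43 changed sign while not passing in the main setting. The percentile over all mouse probes and no scaling change only the factor of each array. By design they move all 3 members by the same amount within a comparison. For the other settings the cause was not tested. With the percentile over all mouse probes the sign changes were, after lithium, miR-199a-5p -0.90 and miR-214 -0.83, in lithium plus MDI against MDI miR-199a-3p -0.17, in the average MDI difference miR-199a-3p -0.44, and in the interaction miR-199a-5p 0.62 and miR-214 0.46. Without scaling they were, after lithium, miR-199a-5p -0.69 and miR-214 -0.62, in lithium plus MDI against MDI miR-199a-5p 0.13 and miR-214 0.049, in the interaction 0.82 and 0.67, and in the average MDI difference miR-199a-3p -0.43. Quantile normalization gave miR-199a-3p 0.050 after lithium, -0.36 in lithium plus MDI against lithium, -0.10 against MDI, -0.15 in the interaction and -0.29 in the average MDI difference, and miR-214 0.039 after MDI. In the authors' deposited table, where miR-199a-3p has 1 identical top value on 9 of the 12 arrays and its differences and sign changes are therefore not read as changes, miR-199a-3p was 0.25 after lithium, -0.13 in lithium plus MDI against lithium, -0.090 in the interaction, -0.086 in the average MDI and 0.20 in the average lithium difference, and after lithium miR-199a-5p was -0.20 and miR-214 -0.016. With the slide as a block the values were miR-199a-3p -0.20 in lithium plus MDI against MDI (the same within slide 2) and -0.23 in the average MDI difference, miR-199a-5p -1.06 and miR-214 -1.40 after lithium, and 0.66 and 0.78 in the interaction. Normexp gave miR-199a-3p 0.055 and miR-214 0.11 after MDI and, in the average lithium difference, miR-199a-5p 0.087 and miR-214 0.081, for which the mean of all probes gave 0.063 and 0.037. The total signal gave miR-199a-3p -0.086 in lithium plus MDI against MDI. Without the 3 arrays that stood apart, miR-199a-5p was 0.083 in the average lithium difference and miR-214 was 0.049 after MDI and -0.018 after lithium.

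The arm ratio moved to -0.059 (quantile) and 0.45 (the authors' deposited table) after lithium, to 0.27, 0.17 and 1.02 (without the 3 arrays) in lithium plus MDI against lithium, and to 0.074 and 0.41 in the average lithium difference, and those from the authors' deposited table carry the same tied value of miR-199a-3p. With each array left out in turn it ranged from 0.27 to 0.49 in the average MDI difference, with an unadjusted exact permutation p of 0.02 at 0.49, without preadipocyte array 2, which was not adjusted over the 6 tests. Preadipocyte array 2 had the highest arm ratio of all arrays, so leaving it out had to raise that difference. The average lithium difference of miR-214 over miR-199a-3p was -0.15 (quantile) and -0.35 (the authors' deposited table), and that over miR-199a-5p was 0.054 in the authors' deposited table, 0.0048 with the total signal and -0.16 to 0.092 with each array left out, where the average MDI difference was -0.017 to 0.24.

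For miR-199a-3p, leaving out each array in turn gave -0.44 to 0.063 after MDI, -0.63 to -0.24 after lithium, 0.16 to 0.47 in lithium plus MDI against lithium, -0.20 to 0.30 in lithium plus MDI against MDI, 0.23 to 0.72 in the interaction, -0.074 to 0.18 in the average MDI difference, -0.32 to -0.067 in the average lithium difference. For miR-199a-5p, leaving out each array in turn gave -0.56 to 0.058 after MDI, -0.25 to 0.28 after lithium, -0.45 to -0.27 in lithium plus MDI against lithium, -0.40 to 0.22 in lithium plus MDI against MDI, -0.40 to 0.22 in the interaction, -0.45 to -0.14 in the average MDI difference, -0.20 to 0.12 in the average lithium difference. For miR-214, leaving out each array in turn gave -0.50 to 0.36 after MDI, -0.20 to 0.26 after lithium, -0.51 to -0.062 in lithium plus MDI against lithium, -0.62 to 0.24 in lithium plus MDI against MDI, -0.69 to 0.17 in the interaction, -0.42 to 0.010 in the average MDI difference, -0.27 to 0.15 in the average lithium difference.

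Same-numbered arrays of different groups had correlations of deviations between -0.48 and 0.47, with a median of 0.061 over 18 pairs. Arrays with different numbers had -0.52 to 0.60, with a median of -0.063 over 36 pairs. The labels state no pairing, and these values do not settle whether replicate numbers pair the samples. With the replicate block miR-199a-3p stayed at -0.21 after MDI, no member call changed, and calls over all tested miRNAs were 16 in lithium plus MDI against lithium and 4 in the interaction, against 0 and 0 without it. Over all settings the number of called miRNAs was 0 to 62 after MDI, 0 to 83 after lithium, 0 to 88 in lithium plus MDI against lithium, 0 in lithium plus MDI against MDI, 0 to 69 in the interaction, 0 to 66 in the average MDI and 0 to 38 in the average lithium difference.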

Other observations

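In the authors' deposited table miR-199a-3p had the same log2 value, 11.8, on 9 of the 12 arrays, and it ranged from 10.98 to 11.8, while miR-199a-5p and miR-214 shared a value on at most 2 arrays.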
